A study of Mus musculus with 16 samples.

Results

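The RBM genes encode proteins named for an RNA-binding motif, and 40 of them were measured in the hippocampus of 16 mice. The members were taken by symbol: all genes whose symbol starts with Rbm were taken, apart from the cold-inducible Rbm3 and names that mark pseudogenes or unnamed gene models. This gave 48 genes of the 54532 in the table, and 40 of the 48 were among the 17555 genes kept by a filter on low counts over the 4 groups. There were 4 mice each of WT and of hTau.P301S without treatment, and 4 of either genotype given NR (WT + NR and hTau.P301S + NR). In the hTau.P301S line the Thy1 promoter, active in neurons, drives a human Tau transgene with the P301S change. The mouse gene table does not list the human transgene, so the genotype labels were not checked by it. NR (nicotinamide riboside), a precursor of NAD+, was given at 6 mM in the drinking water for 3 months from 12 months of age, and the other mice drank vehicle water. All mice were 15 months old at the end by the sample labels, while the study's text gives a different schedule. All 16 had gone through behavioural tests before the tissue was taken, and the labels do not give their sex. The study asked whether RNA splicing is disturbed in tauopathy and altered by NR, and RBM proteins include many regulators of splicing.

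RBM proteins hold one or more RNA recognition motifs, folded domains that bind short stretches of single-stranded RNA. They act at almost every step of the life of a transcript: choosing splice sites, marking exon junctions, guiding methylation of adenosines (m6A), processing ribosomal RNA in the nucleolus, feeding nuclear RNA to the exosome for decay, and setting the stability of mRNA in the cytoplasm. In neurons, where alternative splicing is extensive, many of these steps shape which protein isoforms a cell makes.

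Each library held between 16490261 and 21915362 counts. The library of hTau.P301S replicate 1 stood apart: 14.4% of its counts were mitochondrial, against 4.48% to 7.07% in the other 15 mice, and 19467 genes were detected in it, against at least 22199. Markers of hippocampal neurons such as Prox1 (20.9 to 160 CPM, counts scaled to an equal library total) and Neurod6 (21.7 to 237 CPM) were present in all mice. Neurod6 was at 21.8 CPM in WT replicate 2, 35.0 in WT + NR replicate 3 and 21.7 in hTau.P301S + NR replicate 4. It was at 116 to 237 CPM in the other mice. Hpca too was lowest in these mice, at 713, 444 and 269 CPM, while Wfs1 (287, 154 and 202 CPM) and Calb1 were not low there. The summed level of 5 choroid plexus markers ran from 18.9 to 9800 CPM, and that of 5 markers of striatal neurons from 26.0 to 850 CPM, and the high values came from more than 1 group. Striatal sums were highest in the mice with low Neurod6, at 850, 160 and 316 CPM in the order above. The summed level of 6 microglial markers was 2840 CPM in hTau.P301S replicate 1 and at most 565 CPM in the others. The markers of this list did not move together in that mouse. C1qa, C1qb, C1qc and Tmem119 were the highest of all mice there, at 1230, 757, 695 and 73.8 CPM. Cx3cr1 was the lowest of all mice at 29.7 CPM, and P2ry12 at 54.8 CPM was within the range of the others. Other marker sums moved with the groups, though not all markers within them did. That of 5 astrocyte markers was 2610 to 3630 CPM in hTau.P301S mice and 2010 to 2430 CPM in WT mice, without overlap, and with NR it was 2640 to 4320 and 2160 to 4090 CPM. Of these markers Gfap was 666 to 1370 CPM in hTau.P301S and 317 to 699 CPM in WT mice, and Aqp4 54.5 to 124 and 110 to 149 CPM. In hTau.P301S replicate 1 Aldoc was the highest of all mice at 2060 CPM. Aqp4, Slc1a3 and Gja1 were the lowest of all there, at 54.5, 173 and 98.1 CPM. That of 9 hippocampal neuron markers was 5040 to 7150 CPM in hTau.P301S mice, 2850 to 5460 CPM in WT mice, and with NR 3110 to 5180 and 2480 to 5740 CPM. Of these, Hpca and Spink8 were the highest of all mice in hTau.P301S replicate 1, at 4110 and 180 CPM. Prox1 and Snap25 were the lowest of all there, at 20.9 and 759 CPM. The part of the markers in the results was not tested. Results that rest on hTau.P301S replicate 1 are given with and without it.

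The 40 members took between 0.112% and 0.155% of all counts in 15 mice, and 0.0845% in hTau.P301S replicate 1. That mouse had the highest level of the 16 mice for 11 members and the lowest for 12, more extremes of either kind than any other mouse. The same counts over all genes were not made, so these are not read as particular to the members. The plot of all members by mouse shows these as a column of strong colours in both directions. By group, the members' share of counts was 0.140 ± 0.013% for WT, 0.131 ± 0.007% for WT + NR, 0.109 ± 0.017% for hTau.P301S and 0.132 ± 0.006% for hTau.P301S + NR (SD, 4 mice each). Apart from replicate 1, the hTau.P301S mice were at 0.112% to 0.124%.

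**Figure D1:**
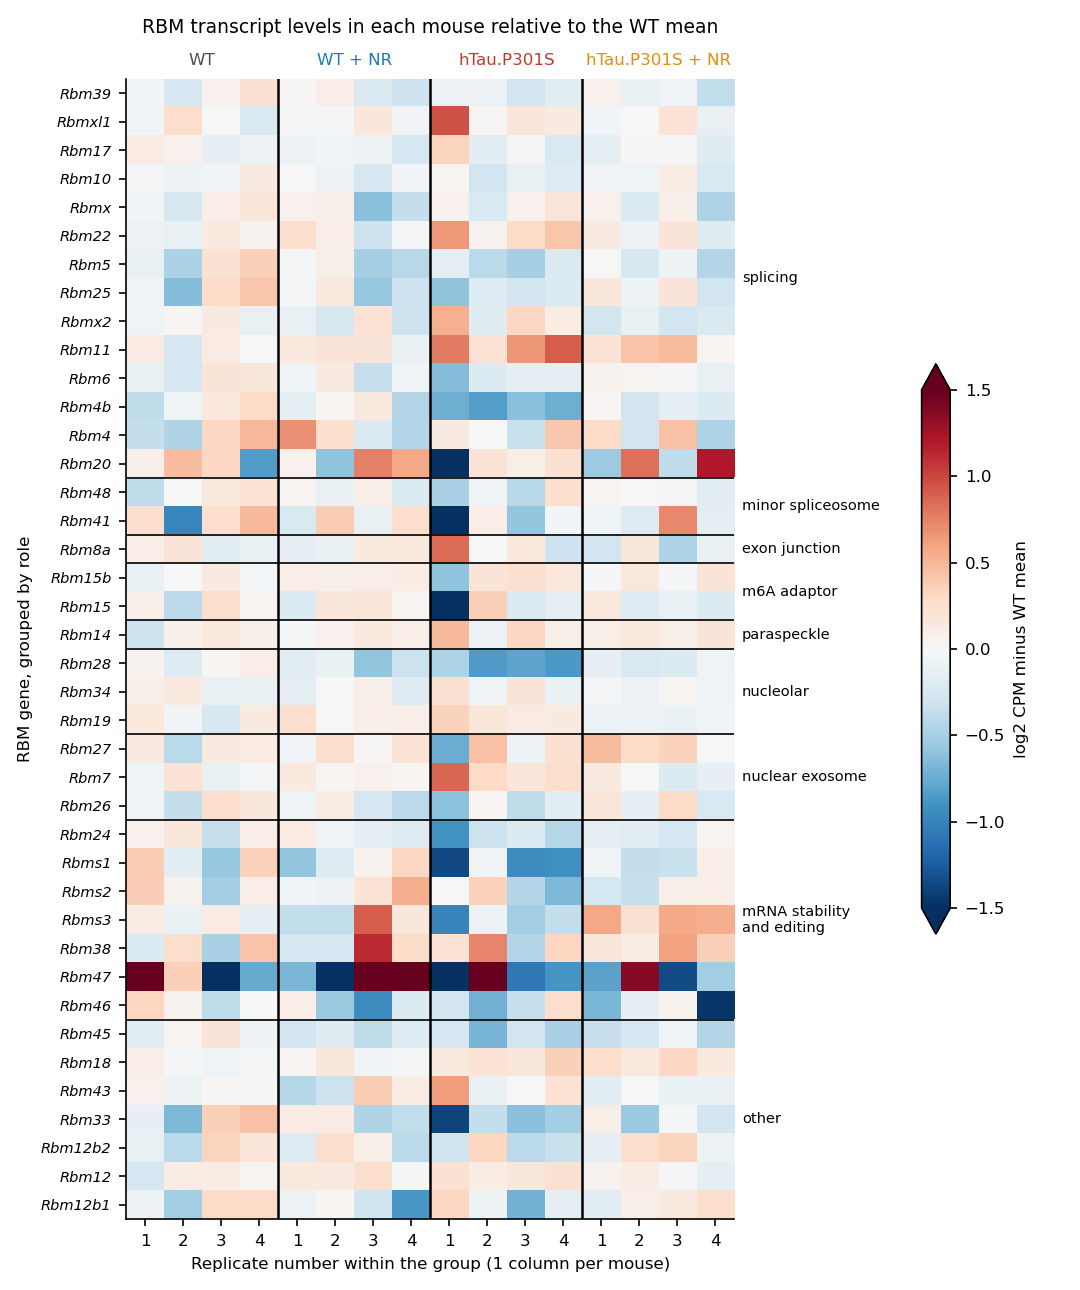
Level of each of the 40 RBM genes (rows, grouped by role) in each of the 16 mice (columns), as log2 CPM minus the mean of the 4 WT mice (red higher, blue lower, colours end at 1.5 in either direction). Rbm28 and Rbm4b are blue in all 4 hTau.P301S mice, while much of the strong colour of other genes lies in hTau.P301S replicate 1, the library with 14.4% mitochondrial counts.

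Levels between genes were compared as CPM per kilobase of the gene length in the table, averaged over 16 mice. Rbm39, a splicing factor related to the large subunit of U2AF, was highest at 27.4 CPM per kb, with a range of 22.5 to 34.0 over the mice. Rbmxl1, a copy of Rbmx that arose by retrotransposition, followed at 21.9 (17.1 to 39.3), and Rbm17, a factor of the 3′ splice site, at 18.5 (15.9 to 24.1). These 3 ranges overlap, and the order of neighbouring genes is therefore not fixed. Rbm8a, a core protein of the exon junction complex also called Y14, was at 13.98 (9.91 to 24.4), and Rbm10, an X-linked regulator of exon skipping, at 13.4 (11.5 to 15.4). Rbmxl1 and Rbm8a each have near-identical relatives in the genome, so how shared reads were assigned could move their levels.

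The lowest members were tissue-restricted genes. Rbm46, a germ-cell regulator of mRNA, was at 0.284 CPM per kb (0.0972 to 0.439), Rbm47 at 0.475 (0.0368 to 2.24) and Rbm20, the regulator of titin splicing in the heart, at 0.568 (0.0629 to 1.17). Their ranges overlap as well. The length used is that of all exons of a gene joined together, which equals the exon union of the GENCODE M21 annotation for 98.0% of genes and for 38 of the 40 members. It is longer than most transcripts of a gene, so genes with a long exon union, such as Rbm5 (15434 bases), can be set low on this scale.

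The 8 genes that did not pass the filter were Rbm31y, Rbm3os, Rbm42, Rbm44, Rbm46os, Rbm8a2, Rbmxl2 and Rbmy. Rbm42, a splicing factor of broad expression, had 13 counts over all 16 mice and at most 4 in any mouse. GENCODE M21 places another gene model of the same strand, Gm21982, over 75.4% of its exon bases, and whether reads were assigned away from Rbm42 was not tested. Among the 40 members, 7 share exon bases with another gene on the same strand and 11 with a gene on the opposite strand. The largest shares were 60.5% of Rbm4 (with Gm21992, a model that also covers 18.6% of Rbm14), 33.1% of Rbm12 (with Cpne1 and Gm28036) and 30.8% of Rbm4b (with Gm37206 on the opposite strand). The library kit named in the labels does not mark strand in its standard form, so reads of genes that overlap on opposite strands cannot be told apart.

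Comparing hTau.P301S with WT mice, a member was called when its adjusted p was below 0.05 (edgeR) and its log2 fold change beyond 0.5 in size. No member was called, and 0.00611% of the 16375 genes tested were. At an unadjusted p under 0.05 there were 6 of the 40 members (15.0%), 5 lower and 1 higher, against 7.14% of all genes (3.73% lower and 3.41% higher). Rbm28, Rbm4b, Rbm33, Rbms1 and Rbm45 had lower and Rbm11 higher levels in hTau.P301S mice. Over the 40 members the median log2 fold change was -0.15, with 17 above 0 and 23 below, beside 0.02 over all genes, 52.3% of them above 0. The mice of the 2 groups did not overlap for 5 members, against 6.24% of all genes: Rbm28, Rbm4b and Rbm45 were lower (2.69% of all genes), and Rbm11 and Rbm18 higher (3.55%). With hTau.P301S replicate 1 left out, no member was called (0.0832% of genes were), and 4 (Rbm28, Rbm4b, Rbm45 and Rbm11) had an unadjusted p under 0.05, against 11.8% of all genes, a share near the background. The count was 3 without WT replicate 4 (4.26% of genes) or hTau.P301S replicate 3 (5.81%), and 2 without hTau.P301S replicate 4 (7.11%). The median was -0.08 without hTau.P301S replicate 3. In these bulk samples, less of a transcript per cell and fewer cells of the type that makes it cannot be told apart.

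Comparing hTau.P301S mice with and without NR, again no member was called, against 0.0061% of 16386 genes. Unadjusted p-values under 0.05 were found for 4 of 40 members (10.0%), against 12.9% of all genes, so the share of RBM genes was near the background. The 4 were Rbms3, Rbm4b and Rbm28, higher with NR (5.86% of all genes), and Rbm7, lower with NR (7.01%). Without hTau.P301S replicate 1 there were also 4, the same genes, against 18.0% of all. The groups did not overlap for 6 members, Rbm28, Rbm4b, Rbms3 and Rbm6 in the higher and Rbm7 and Rbm19 in the lower direction, against 11.9% of all genes (6.33% higher and 5.54% lower). The median log2 fold change was 0.05 over the members, 23 of them above 0, and -0.03 over all genes, 47.6% of them above 0. Both comparisons use the same 4 hTau.P301S mice, so they are not independent of each other, and their values are only set side by side below. The count at an unadjusted p under 0.05 was 9 without hTau.P301S replicate 2, against 20.4% of all genes in that fit. The median was 0.11 without hTau.P301S + NR replicate 4.

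**Figure D2:**
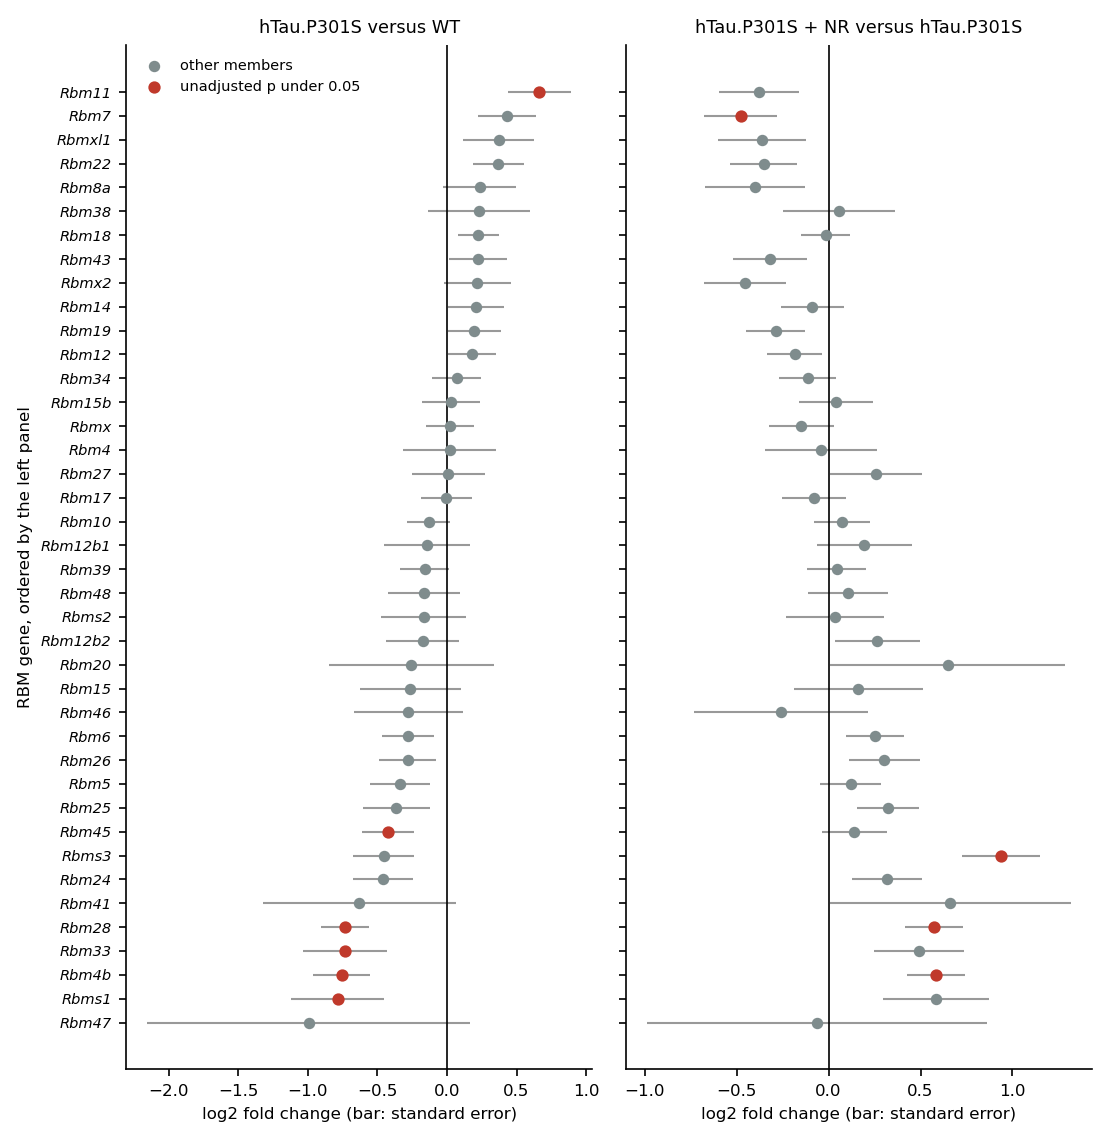
Log2 fold change of the 40 RBM genes (points, with their standard errors as bars) for hTau.P301S against WT (left) and for NR against no NR among hTau.P301S mice (right), genes in the order of the left panel. Red points mark an unadjusted p under 0.05, 6 on the left and 4 on the right, and the same 4 hTau.P301S mice enter both panels.

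Among the nucleolar members, Rbm28 had the smallest p of all members between hTau.P301S and WT mice. Rbm28 (ENSMUSG00000029701, GRCm38 chromosome 6, 29123576 to 29165006, minus strand, 18 exon blocks) is the relative of yeast Nop4, a nucleolar protein needed for the large ribosomal subunit, and it has also been found with spliceosomal RNPs. It was at 41.8, 35.2, 41.1 and 43.2 CPM in the WT mice and at 29.1, 22.4, 23.3 and 22.1 CPM in the hTau.P301S mice. With NR it was at 36.0, 37.4, 26.6 and 32.2 CPM in WT and at 36.9, 34.3, 34.7 and 38.7 CPM in hTau.P301S mice. All 4 untreated hTau.P301S mice lay below all untreated WT mice and below all hTau.P301S + NR mice. They overlapped the WT + NR mice through a single mouse of each group, hTau.P301S replicate 1 and WT + NR replicate 3.

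The mean of Rbm28 was 24.2 ± 3.29 CPM in hTau.P301S and 40.3 ± 3.54 CPM in WT mice (SD, n = 4 each). The log2 fold change was -0.73 (standard error 0.17, unadjusted p = 0.00223), the 66th smallest p of all genes, and the adjusted p was 0.545 (edgeR, Benjamini-Hochberg). The exact permutation test gave p = 0.0286, the smallest that 4 against 4 mice can give. With hTau.P301S replicate 1 left out, where Rbm28 was the highest of its group, the log2 fold change was -0.84 and the adjusted p was 0.0656 (edgeR). Leaving out each mouse in turn kept the log2 fold change of Rbm28 between -0.84 and -0.71, with an unadjusted p of at most 0.00917. Other models called it: DESeq2 on the same mice gave Rbm28 an adjusted p of 0.0278, where 0.375% of genes were called. With all 4 groups in one fit, the adjusted p of Rbm28 was 0.0434 in edgeR, where 0.205% of genes were called, and 1.94e-04 in DESeq2, where 1.46% were.

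With NR in hTau.P301S mice, Rbm28 was at 36.2 ± 2.04 CPM (SD, n = 4). In log2 units, the change was 0.57 (standard error 0.16, unadjusted p = 0.00575), with an adjusted p of 0.367 (edgeR). In the fit without hTau.P301S replicate 1 it was 0.69 with an adjusted p of 0.0496 (edgeR), past both limits, as were 0.197% of genes in that fit. In WT mice with NR, Rbm28 was at 33.0 ± 4.83 CPM (SD, n = 4), which differed from WT by -0.28 on the log2 scale (standard error 0.13, unadjusted p = 0.0649). The interaction, which tests whether the change with NR differs between the genotypes, was 0.87 for Rbm28 (standard error 0.20, unadjusted p = 4.84e-04), the 17th smallest p of 17555 genes. Its adjusted p was 0.484 (edgeR), and no gene was called. DESeq2 on the same mice gave an interaction of 0.89 for Rbm28 with an adjusted p of 0.0265, where 0.0476% of genes were called.

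The other nucleolar members had smaller differences. Rbm19, the relative of yeast Mrd1 that takes part in the processing of ribosomal RNA, was at 13.4, 12.0, 11.4 and 11.6 CPM in the hTau.P301S mice and at 9.90, 9.86, 9.80 and 10.3 CPM in the hTau.P301S + NR mice. It was at 11.7, 10.2, 8.86 and 11.5 CPM in WT and at 12.5, 10.4, 11.3 and 11.2 CPM in WT + NR mice. The hTau.P301S + NR mice were below all mice of hTau.P301S and of WT + NR, and within the range of WT. The estimated log2 fold change of Rbm19 was -0.29 (standard error 0.16, unadjusted p = 0.103) with NR in hTau.P301S mice, and -0.19 (standard error 0.12, unadjusted p = 0.156) for hTau.P301S + NR relative to WT + NR. Neither value passed the test, although the exact permutation p of Rbm19 was 0.0286 in both. Part of its exons, 14.6% of the bases, overlap Gm10390 on the opposite strand.

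Genes of ribosome biogenesis that are not RBM genes were read beside Rbm28, 24 of them in all. Between hTau.P301S and WT mice, 20 of the 24 had log2 fold changes above 0 (median 0.26, beside 0.02 for all genes), opposite to Rbm28. Of the 24, 2 had an unadjusted p under 0.05, where 7.14% of all genes did, and none was called. The 2 were Utp4, a factor of the small ribosomal subunit, at 0.61 (standard error 0.15, unadjusted p = 0.00281) and Rrp1b at -0.51 (standard error 0.19, unadjusted p = 0.0263). Without hTau.P301S replicate 1 the count above 0 was 19 of 24, with a median of 0.17 beside -0.03 for all genes. With NR in hTau.P301S mice, 16 of the 24 were below 0 (median -0.27), or 20 of 24 without that mouse (median -0.14), and 5 had an unadjusted p under 0.05, where 12.9% of all genes did. Without that mouse there were 4, all but Bop1, where 18.0% of all genes did. The 5 were Utp4 (-0.55), Nop2 (-0.38), Fbl (-1.10) and Bop1, lower with NR, and Rrp1b (0.49), higher with NR.

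Among the splicing members, Rbm4b, like Rbm28, had its lowest group mean in untreated hTau.P301S mice and its highest in WT mice. Rbm4b (ENSMUSG00000033760, GRCm38 chromosome 19, 4756497 to 4767065, plus strand) is a regulator of alternative splicing and a close paralog of Rbm4, which lies 17227 bases away on the opposite strand. It was at 14.1, 17.5, 20.5 and 22.6 CPM in the WT mice and at 11.0, 10.3, 11.8 and 11.0 CPM in the hTau.P301S mice. In the NR groups it was at 16.5, 18.8, 20.4 and 13.5 CPM in WT and at 18.6, 15.2, 16.6 and 15.98 CPM in hTau.P301S mice. The 4 untreated hTau.P301S mice were tightly grouped and below every mouse of the other 3 groups, and the NR groups overlapped each other and WT.

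The mean of Rbm4b was 11.0 ± 0.63 CPM in hTau.P301S, 18.7 ± 3.68 in WT and 16.6 ± 1.48 in hTau.P301S + NR mice (SD, n = 4 each). The log2 fold change from WT to hTau.P301S was -0.76 (standard error 0.20, unadjusted p = 0.00496), with an adjusted p of 0.598 (edgeR). That with NR in hTau.P301S mice was 0.59 (standard error 0.16, unadjusted p = 0.00501), with an adjusted p of 0.367 (edgeR). Both differences of Rbm4b gave an exact permutation p of 0.0286. They were -0.77 and 0.60 without hTau.P301S replicate 1, so they did not rest on that mouse. The interaction of Rbm4b was 0.70 (standard error 0.24, unadjusted p = 0.0106). Rbm4b is one of the longer members, at 9886 bases, and once the trend with gene length was removed from each mouse (an alternative chosen after seeing the data) its unadjusted p was above 0.05 in all 3. As given above, 30.8% of its exon bases overlap Gm37206 on the opposite strand.

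Rbm4 itself had low counts and no such pattern. It was at 2.52, 2.35, 4.06 and 4.60 CPM in WT, 3.59, 3.23, 2.56 and 4.32 in hTau.P301S, 5.29, 3.88, 2.81 and 2.37 in WT + NR and 3.94, 2.66, 4.43 and 2.33 in hTau.P301S + NR mice. The 4 groups overlapped. Since Gm21992 covers 60.5% of the exon bases of Rbm4 on the same strand, and reads that match both Rbm4 and Rbm4b could have been split between the paralogs, the levels of both are uncertain.

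The promoters of Rbm28, Rbm4b, Rbm7 and Rbms3 are shown because these are the 4 members with an unadjusted p under 0.05 between hTau.P301S mice with and without NR, 3 of them higher with NR and 1 lower. They were chosen after their values were seen, and a motif in them is a description only. Each is given from 250 bases before to 50 bases after the RefSeq start site (GRCm38.p6), in the direction of the gene, with capitals for a GC box (GGGCGG on either strand), a CCAAT box (CCAAT on either strand) or a TATA box (TATAAA on either strand). Rbm28 is on the minus strand (chr6:29164675-29164974), Rbm4b on the plus strand (chr19:4756275-4756574) and Rbm7 on the minus strand (chr9:48495281-48495580). Rbms3, on the minus strand, has 2 windows, the first at chr9:117629864-117630163 and the second at chr9:117252434-117252733.
Rbm28: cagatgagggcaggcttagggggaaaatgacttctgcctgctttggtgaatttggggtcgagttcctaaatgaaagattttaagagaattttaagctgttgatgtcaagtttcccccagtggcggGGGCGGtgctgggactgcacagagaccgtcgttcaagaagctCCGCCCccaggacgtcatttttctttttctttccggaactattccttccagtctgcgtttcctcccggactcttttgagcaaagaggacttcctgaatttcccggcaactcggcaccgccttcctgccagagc
Rbm4b: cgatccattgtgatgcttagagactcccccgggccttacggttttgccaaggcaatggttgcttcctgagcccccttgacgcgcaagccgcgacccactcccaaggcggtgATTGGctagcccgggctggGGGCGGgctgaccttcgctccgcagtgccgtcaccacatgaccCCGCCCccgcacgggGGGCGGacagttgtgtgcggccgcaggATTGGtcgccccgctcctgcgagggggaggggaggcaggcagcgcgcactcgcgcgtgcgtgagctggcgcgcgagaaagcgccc
Rbm7: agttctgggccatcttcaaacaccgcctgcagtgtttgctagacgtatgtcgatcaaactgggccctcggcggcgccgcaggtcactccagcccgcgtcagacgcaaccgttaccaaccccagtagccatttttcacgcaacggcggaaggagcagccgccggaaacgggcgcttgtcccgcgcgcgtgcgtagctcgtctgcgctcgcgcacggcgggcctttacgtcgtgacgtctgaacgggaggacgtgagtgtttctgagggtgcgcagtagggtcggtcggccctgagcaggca
Rbms3, first window: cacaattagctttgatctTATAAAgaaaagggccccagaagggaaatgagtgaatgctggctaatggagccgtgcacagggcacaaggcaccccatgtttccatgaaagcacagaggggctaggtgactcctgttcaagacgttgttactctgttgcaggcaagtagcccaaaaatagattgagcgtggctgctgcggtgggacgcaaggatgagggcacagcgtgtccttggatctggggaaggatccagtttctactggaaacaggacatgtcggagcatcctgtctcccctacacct
Rbms3, second window: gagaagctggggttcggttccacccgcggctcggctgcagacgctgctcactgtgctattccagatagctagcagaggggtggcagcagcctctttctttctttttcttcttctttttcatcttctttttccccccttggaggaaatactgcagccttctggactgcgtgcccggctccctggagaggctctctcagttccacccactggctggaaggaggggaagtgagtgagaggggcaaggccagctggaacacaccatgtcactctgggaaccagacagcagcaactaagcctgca

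In these windows Rbm28 holds 2 GC boxes, beginning at positions -125 and -83 from the start site, and no CCAAT box. Rbm4b holds 3 GC boxes, at -120, -77 and -62, and 2 CCAAT boxes, at -139 and -35. Rbm7 holds neither. The first window of Rbms3 holds a TATA box, at -232, and the second none of these motifs. A GC box was present in 35.7% of all 32851 RefSeq promoters of the same length and a CCAAT box in 37.4%, while each of them was found in 39.5% of the 43 promoters listed for 34 of the members. The other motifs searched, on both strands, included the ETS core CCGGAAG (8.86% of all promoters and 11.6% of those of members), the TATA box (13.6% and 18.6%) and the cyclic AMP response element TGACGTCA (1.79% and 0.0%). Of 10-letter motifs, that of NRF1 was in 0.971% of all promoters and 0.0% of those of members, and that of YY1 in 0.852% and 2.33% (Rbm15b). A 10-letter palindrome with CGCG at its centre was in 0.466% and 6.98%, at Rbm15, Rbm26 and Rbm39. Member promoters had a median GC content of 59.7%, against 52.7% for all promoters.

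Rbm11, a splicing factor with high expression in brain and testis, was the only member above WT at an unadjusted p under 0.05. It was at 7.84, 5.99, 7.80 and 7.19 CPM in the WT mice and at 12.3, 8.32, 11.4 and 13.5 CPM in the hTau.P301S mice. With NR it was at 7.96, 8.20, 8.19 and 6.66 CPM in WT and at 8.25, 9.65, 10.0 and 7.29 CPM in hTau.P301S mice. All hTau.P301S mice were above all WT mice, hTau.P301S replicate 2 by a small margin, and the hTau.P301S + NR mice overlapped both. In log2 units, the change of Rbm11 was 0.66 (standard error 0.23, unadjusted p = 0.0177), with an adjusted p of 0.598 (edgeR) and an exact permutation p of 0.0286. With hTau.P301S replicate 1 left out it was 0.62, and with the length trend removed Rbm11 was at 0.52 (unadjusted p = 0.0523). DESeq2 with all 4 groups in one fit gave Rbm11 an adjusted p of 0.0362, and 0.056 without that mouse. For NR in hTau.P301S mice, the log2 fold change of Rbm11 was -0.38 (standard error 0.22, unadjusted p = 0.114).

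Rbm5 and Rbm6 are neighbours on chromosome 9, 2562 bases apart on the same strand, and encode related regulators of alternative splicing. Rbm6 was at 25.4, 34.4, 36.2 and 36.0 CPM in the hTau.P301S mice and at 41.1, 40.9, 39.1 and 36.7 CPM in the hTau.P301S + NR mice. It was at 36.9, 33.3, 45.5 and 44.7 CPM in WT and at 38.2, 43.8, 31.2 and 38.3 CPM in WT + NR mice. The hTau.P301S + NR mice lay above the untreated ones by a narrow gap, and hTau.P301S replicate 1 was the lowest of all 16. The estimated log2 fold change of Rbm6 with NR was 0.25 (standard error 0.16, unadjusted p = 0.147, exact permutation p = 0.0286) and became -0.22 when the trend with gene length was removed. Rbm5 was at 91.3 ± 10.3 CPM in hTau.P301S, 115.8 ± 28.4 in WT, 99.1 ± 19.7 in WT + NR and 99.8 ± 13.3 in hTau.P301S + NR mice (SD, n = 4 each), with log2 fold changes of -0.34 (standard error 0.22) from WT to hTau.P301S and 0.12 (standard error 0.16) with NR.

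The highly expressed splicing members differed little. Rbm39 averaged 203.3 ± 27.7 CPM in WT and 181.5 ± 11.6 CPM in hTau.P301S mice, and with NR 189.4 ± 25.3 and 187.8 ± 22.9 CPM (SD, n = 4 each). Rbm10 had group means from 47.4 to 52.0 CPM and Rbm17 from 42.5 to 46.1 CPM. Rbmxl1 was at 66.6 CPM in hTau.P301S replicate 1 and between 34.6 and 38.7 CPM in the other 3 mice of that group, which overlapped the 29.1 to 41.1 CPM of WT mice. Of all 14 splicing members, 6 had log2 fold changes above 0 and 8 below in hTau.P301S relative to WT mice (median -0.07), and 7 and 7 with NR in hTau.P301S mice (median 0.00). Among 17 partners that recognise splice sites, such as U2af1 and Sf3b1, 12 were below 0 in hTau.P301S mice (median -0.08), and Luc7l3, a factor associated with U1 snRNP, had the single unadjusted p under 0.05 (-0.52, standard error 0.20). Over all genes 52.3% were above 0 and 7.14% had an unadjusted p under 0.05.

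**Figure D3:**
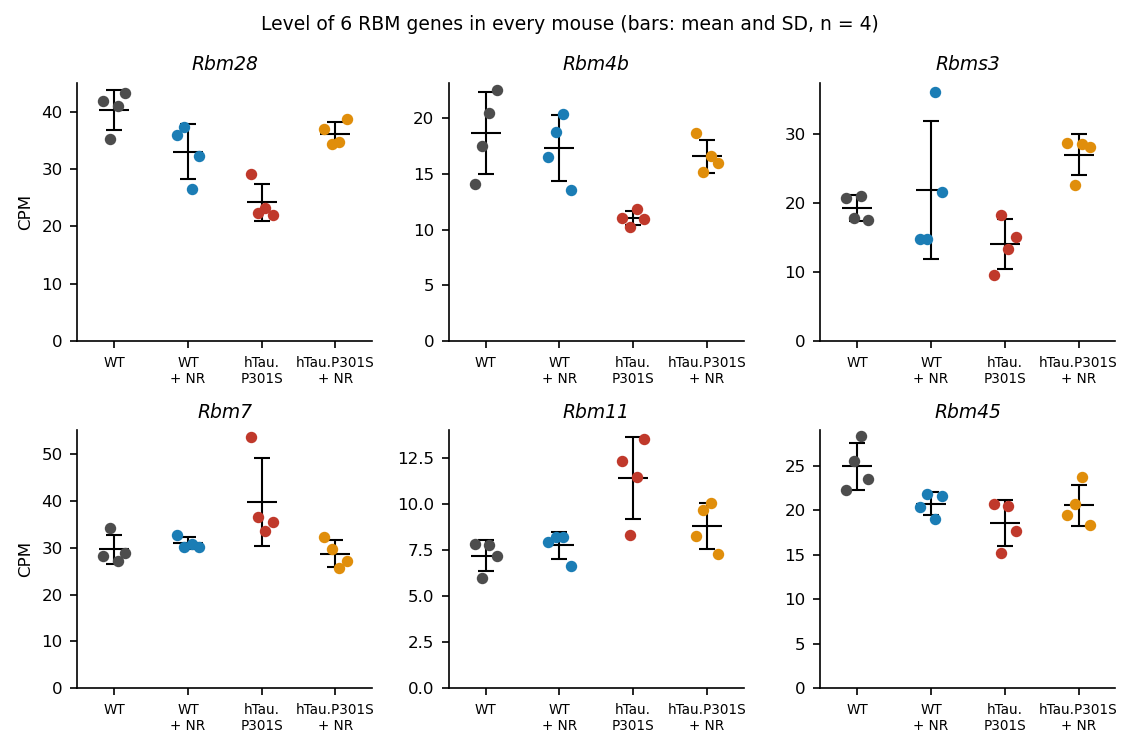
CPM of 6 RBM genes in every mouse (points), with the mean and SD of the 4 mice of each group (bars). Rbm28 (22.1 to 29.1 CPM) and Rbm4b (10.3 to 11.8 CPM) in untreated hTau.P301S mice lie below both WT and hTau.P301S + NR mice, and 1 mouse, hTau.P301S replicate 1, sets much of the height of that group for Rbm7 (53.7 CPM).

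Rbm7 is the RNA-binding subunit of the nuclear exosome targeting complex, which hands short-lived nuclear RNA to the exosome. Rbm7 (ENSMUSG00000042396, GRCm38 chromosome 9, 48488701 to 48495299, minus strand) was at 28.2, 34.3, 27.3 and 28.9 CPM in WT and at 53.7, 36.5, 33.5 and 35.5 CPM in hTau.P301S mice. In the NR groups it was at 32.7, 30.2, 30.9 and 30.1 CPM in WT and at 32.4, 29.6, 25.7 and 27.2 CPM in hTau.P301S mice. All hTau.P301S mice were above all hTau.P301S + NR mice, closely for replicate 3, while 1 WT mouse was above that hTau.P301S mouse. With NR in hTau.P301S mice, the log2 fold change of Rbm7 was -0.48 (standard error 0.20, unadjusted p = 0.0406), with an adjusted p of 0.367 (edgeR) and an exact permutation p of 0.0286. In the fit without hTau.P301S replicate 1 the log2 fold change of Rbm7 was smaller in size, at -0.28 (unadjusted p = 0.0345). Its unadjusted p was above 0.05 without hTau.P301S + NR replicate 2, 3 or 4, and at most 0.099. The interaction of Rbm7 was -0.53 (standard error 0.22, unadjusted p = 0.0269), and -0.35 without that mouse.

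Rbm26 and Rbm27, which connect polyadenylated nuclear RNA to the exosome, had log2 fold changes of opposite sign to Rbm7 with NR, 0.30 and 0.26, neither at an unadjusted p under 0.05 (named after their values were seen). Of 15 subunits and adaptors of the nuclear exosome outside the RBM family, 13 were above 0 in hTau.P301S relative to WT mice, with a median of 0.33. None had an unadjusted p under 0.05. Without hTau.P301S replicate 1, 7 were above 0 and 8 below, with a median of -0.05, so the direction of this list rested on that mouse. With NR in hTau.P301S mice 11 of 15 were below 0 (median -0.43), and 8 of 15 without that mouse (median -0.00).

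The members that act on the stability and editing of mRNA included Rbms3, which had the smallest p of all members with NR in hTau.P301S mice. Rbms3 (ENSMUSG00000039607, GRCm38 chromosome 9, 116572746 to 117629913, minus strand) belongs to a family first known for binding single-stranded DNA near Myc, and binds U-rich stretches of mRNA. It was at 9.57, 18.2, 13.4 and 15.0 CPM in the hTau.P301S mice and at 28.7, 22.5, 28.6 and 28.1 CPM in the hTau.P301S + NR mice. In WT it was at 20.8, 17.9, 20.99 and 17.5 CPM and in WT + NR at 14.8, 14.8, 36.0 and 21.6 CPM. Every hTau.P301S + NR mouse was above every hTau.P301S and every WT mouse, whereas the WT + NR mice overlapped all other groups.

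The mean of Rbms3 was 27.0 ± 2.97 CPM in hTau.P301S + NR and 14.04 ± 3.60 CPM in hTau.P301S mice (SD, n = 4 each). The log2 fold change was 0.94 (standard error 0.21, unadjusted p = 0.00189), the 96th smallest p, with an adjusted p of 0.323 (edgeR) and an exact permutation p of 0.0286. With hTau.P301S replicate 1 left out it was 0.81, with an adjusted p of 0.0632 (edgeR). DESeq2 on the same 8 mice gave Rbms3 an adjusted p of 0.0224, and called 3 members (Rbms3, Rbm28 and Rbm4b) where 0.81% of all genes were called. In one DESeq2 fit of all 4 groups, Rbms3 (adjusted p = 0.0487) and Rbm28 (adjusted p = 0.015) were called, with 0.729% of genes. Relative to WT, Rbms3 in untreated hTau.P301S mice was at -0.46 on the log2 scale (standard error 0.22, unadjusted p = 0.0712). The interaction of Rbms3 was 0.76 (standard error 0.37, unadjusted p = 0.0562).

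Rbms1, of the same family, was at 21.3, 14.5, 11.0 and 20.8 CPM in WT and at 6.33, 15.73, 8.44 and 8.59 CPM in hTau.P301S mice. With NR it was at 10.8, 14.3, 16.9 and 20.3 CPM in WT and at 15.8, 12.7, 12.9 and 17.5 CPM in hTau.P301S mice. Only hTau.P301S replicate 2 reached the WT range. In log2 units, the change of Rbms1 from WT to hTau.P301S was -0.79 (standard error 0.34, unadjusted p = 0.0443, exact permutation p = 0.0857). In the fit without hTau.P301S replicate 1 it was -0.63 (unadjusted p = 0.0698), and with NR in hTau.P301S mice 0.59 (standard error 0.29, unadjusted p = 0.0735). Over the 7 members of this role, 6 had log2 fold changes below 0 in hTau.P301S relative to WT mice (median -0.46), while 52.3% of all genes were above 0. The 6 include Rbm47 at -0.99 (standard error 1.16) and Rbm46, with 208 counts over all 16 mice, both described below. Among them hTau.P301S replicate 1 was the lowest of its group for Rbms1, Rbms3, Rbm47 and Rbm24. Rbm24, named here after its values were seen, was at 10.26 CPM in that mouse and at 14.41 to 16.73 CPM in the others of its group.

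Rbm47, a partner of the deaminase APOBEC1 in C-to-U editing of mRNA, varied more than any other member, 60.8 times between the lowest and the highest mouse. In the 6 mice with the highest summed choroid plexus markers, at 2460 to 9800 CPM, Rbm47 was between 2.24 and 16.03 CPM. In the other 10 mice, with markers at 18.9 to 441 CPM, it was between 0.26 and 1.17 CPM. The 6 mice came from all 4 groups: WT replicates 1 and 2, WT + NR replicates 3 and 4, hTau.P301S replicate 2 and hTau.P301S + NR replicate 2. The order of the 7 highest mice was the same for Rbm47 and for the summed markers. Group differences of Rbm47, such as the log2 fold change of -1.73 (standard error 1.02) for hTau.P301S + NR relative to WT + NR mice, moved with these markers, and their part in the result was not tested.

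**Figure D4:**
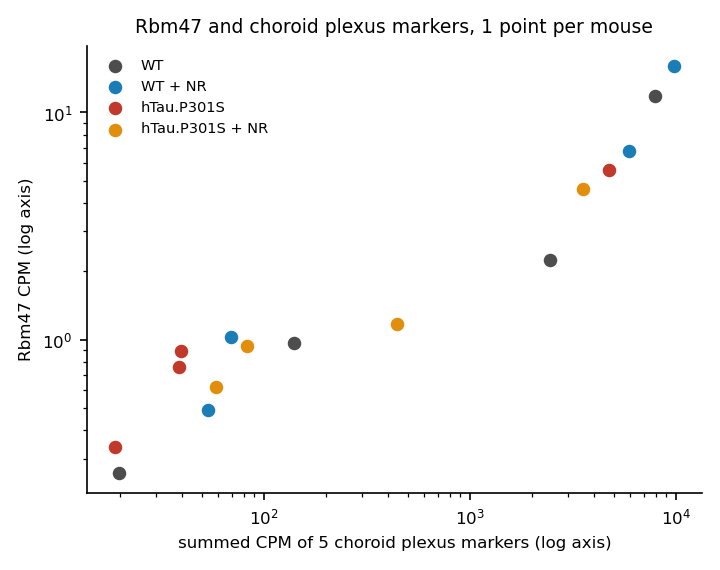
Rbm47 CPM against the summed CPM of 5 choroid plexus markers (Ttr, Folr1, Kl, Clic6 and Kcne2), 1 point per mouse, both axes logarithmic. The 6 mice with marker sums of 2460 CPM or more hold the 6 highest Rbm47 levels, and they come from all 4 groups.

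Rbm20 and Rbm46 were near the lower limit of what these libraries measure. Rbm20 was at 0.43 CPM in hTau.P301S replicate 1 and between 1.84 and 7.92 CPM in the other 15 mice. Rbm46 was between 0.24 and 1.10 CPM in all mice. No comparison of either gave an unadjusted p under 0.05. A modest difference was not detectable with the few counts of Rbm46 or the spread of Rbm20.

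The m6A adaptors Rbm15 and Rbm15b bring the methyltransferase complex to its target RNA. Rbm15b was at 58.9, 63.7, 70.1 and 62.9 CPM in WT and at 41.8, 73.1, 75.3 and 70.9 CPM in hTau.P301S mice. Its paralog Rbm15 was at 19.1, 13.8, 21.7 and 18.7 CPM in WT and at 5.90, 23.2, 15.6 and 16.3 CPM in hTau.P301S mice. For both genes hTau.P301S replicate 1 was the lowest of all mice. The other 3 hTau.P301S mice overlapped WT for Rbm15 and lay above all WT mice for Rbm15b. In the NR groups Rbm15b was between 62.6 and 72.8 CPM and Rbm15 between 15.6 and 20.6 CPM. Of 13 other genes of the m6A machinery, 10 were below 0 in hTau.P301S relative to WT mice (median -0.08) and none had an unadjusted p under 0.05. Without hTau.P301S replicate 1, 8 of 13 were above 0 (median 0.06), so this list turned direction with that mouse.

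Rbm33, which recruits the m6A demethylase ALKBH5, was at 57.4, 39.1, 79.7 and 84.7 CPM in WT and at 23.9, 48.7, 40.3 and 43.8 CPM in hTau.P301S mice. In the NR groups it was at 67.7, 67.7, 45.7 and 48.4 CPM in WT and at 66.2, 42.4, 61.2 and 51.1 CPM in hTau.P301S mice. The groups overlapped through WT replicate 2, a mouse with high striatal markers (850 CPM summed), and hTau.P301S replicate 1 was lowest. The estimated log2 fold change of Rbm33 from WT to hTau.P301S was -0.73 (standard error 0.30, unadjusted p = 0.0377, exact permutation p = 0.114). With hTau.P301S replicate 1 left out it was -0.57 (unadjusted p = 0.053). With NR in hTau.P301S mice it was 0.49 (standard error 0.24, unadjusted p = 0.0757).

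Rbm45, an RNA-binding protein found in inclusions in motor neuron disease and frontotemporal dementia, was at 22.3, 25.6, 28.4 and 23.6 CPM in WT and at 20.8, 15.3, 20.5 and 17.7 CPM in hTau.P301S mice. With NR it was at 20.3, 21.9, 19.1 and 21.7 CPM in WT and at 19.5, 20.7, 23.8 and 18.4 CPM in hTau.P301S mice. The untreated WT mice were above all hTau.P301S and all WT + NR mice. The log2 fold change of Rbm45 was -0.42 (standard error 0.19, unadjusted p = 0.0481) for hTau.P301S and -0.26 (standard error 0.12, unadjusted p = 0.056) for WT + NR, both relative to WT and both with an exact permutation p of 0.0286. Both differences share the WT mice. In the fit without hTau.P301S replicate 1 the first was -0.49 (unadjusted p = 0.0138).

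Rbm18 was at 44.7, 40.9, 40.2 and 41.1 CPM in WT and at 46.3, 48.3, 47.1 and 53.4 CPM in hTau.P301S mice. In the NR groups it was at 42.4, 47.1, 40.4 and 41.1 CPM in WT and at 49.9, 46.2, 51.8 and 46.0 CPM in hTau.P301S mice. All untreated hTau.P301S mice lay above all untreated WT mice, and hTau.P301S + NR mice stayed in the same range, with 1 WT + NR mouse among them. In log2 units, the change of Rbm18 was 0.23 (standard error 0.14, unadjusted p = 0.152) without NR and 0.18 (standard error 0.09, unadjusted p = 0.077) with NR, and -0.01 (standard error 0.13) with NR in hTau.P301S mice. Its exons overlap Mrrf on the opposite strand over 6.6% of their bases.

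The remaining paralog pair, Rbm12b1 and Rbm12b2, lies on chromosome 4 with 44020 bases between the genes. Rbm12b1 had group means from 5.44 to 7.004 CPM and Rbm12b2 from 8.56 to 10.3 CPM, and all groups of both overlapped. The other 15 members are not named one by one. By the rule used for naming, none of them had an unadjusted p under 0.05 or groups without overlap across the 4 comparisons of 2 groups. Among them Rbm41, a protein of the minor spliceosome named here after its values were seen, was at 0.26 CPM in hTau.P301S replicate 1 and between 2.58 and 8.63 CPM in the other 15 mice.

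Lists around other roles gave few unadjusted p-values under 0.05 in hTau.P301S relative to WT mice, and no call. Over all genes the shares were 7.14% and 0.00611%. Among 8 paraspeckle proteins, partners of the member Rbm14, there were 2, Tardbp, which encodes TDP-43, at -0.52 (standard error 0.17) and Sfpq at -0.65 (standard error 0.23). Among 11 proteins of the minor spliceosome there was 1, Snrnp48 at -0.60 (standard error 0.26), and among 16 of the exon junction complex and nonsense-mediated decay also 1, the kinase Smg1 at -0.88 (standard error 0.38). For NR in hTau.P301S mice, 12.9% of all genes had an unadjusted p under 0.05. In these lists there was 1 of the 8 and 1 of the 11, and of the 16 there was 1 higher and 1 lower. Sfpq was at 0.54 (standard error 0.21) and Rnpc3, a protein of the minor spliceosome, at 0.46 (standard error 0.20). Smg1 was at 0.90 (standard error 0.29) and the exon junction helicase Eif4a3 at -0.75 (standard error 0.31). All had an adjusted p of 0.367 or above (edgeR).

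In WT + NR relative to WT mice, no member was called and none had an unadjusted p under 0.05, against 0.0% and 0.79% of 16714 genes. DESeq2 on the same mice also called no member (0.00943% of genes were called), with none at an unadjusted p under 0.05. The count was 1 without WT replicate 1 (1.89% of genes) or 2 (1.72%), or without WT + NR replicate 1 (0.709%) or 2 (1.3%). Rbm45 was the only member without overlap, where 0.754% of genes had none. The median log2 fold change was -0.04 over the members, 19 of them above 0, and 0.00 over all genes, 51.1% of them above 0, and 39 of 40 were within 0.5 of 0. The exception was Rbm47 at 0.67 (standard error 1.21), which followed the choroid plexus markers.

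In hTau.P301S + NR relative to WT + NR mice, no member was called, against 0.054% of 16671 genes, and none had an unadjusted p under 0.05, against 6.09%. DESeq2 on the same mice gave 0 on both counts, and called 0.179% of genes. In edgeR the second count was 2 without WT + NR replicate 2 (8.33% of genes). It was 1 without WT + NR replicate 3 (11.2%) or hTau.P301S + NR replicate 2 (7.14%). Rbm19 was the single member without overlap, against 3.73% of genes. The median absolute log2 fold change was 0.09 over the members and 0.16 over all genes, whereas between the untreated groups it was 0.25 and 0.32. The untreated groups include hTau.P301S replicate 1, and these medians were not computed without it. Rbm28, at 36.2 and 33.0 CPM on average, and Rbm4b, at 16.6 and 17.3 CPM, overlapped between the NR groups.

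For the interaction, 3 of 40 members (7.5%) had an unadjusted p under 0.05, against 7.92% of 17555 genes, a share near the background. The 3 were Rbm28, Rbm4b and Rbm7. The count was 6 without WT replicate 2 (9.31% of genes) and 7 without hTau.P301S replicate 2 (14.5%). No gene of the table passed the adjusted limit in edgeR (0.0%). The median interaction was 0.14 over the members and -0.02 over all genes.

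The change of a member went with the length of its gene. Over the 40 members, whose values come from the same libraries, the Spearman correlation of log2 fold change with gene length was -0.51 in hTau.P301S relative to WT mice and -0.27 without hTau.P301S replicate 1. Of the 20 members longer than 5125 bases, 14 were below 0 (median -0.28), and of the 20 shorter ones 9 were (median 0.02). The relation was not particular to RBM genes, since over all 16375 genes it was -0.38. With NR in hTau.P301S mice, using the same untreated mice, it was 0.55 over the members, 0.37 without that mouse and 0.48 over all genes. In single mice the correlation of the members' deviation with length was lowest in hTau.P301S replicate 1 (-0.63) and highest in hTau.P301S + NR replicate 1 (0.62).

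When the trend with length was removed from each mouse, the median log2 fold change of the members was -0.00 in hTau.P301S relative to WT mice and -0.02 with NR in hTau.P301S mice. Rbm28 was then at -0.62 (unadjusted p = 0.0175) and 0.43 (unadjusted p = 0.0703), Rbm45 at -0.63 in the first (unadjusted p = 0.0186) and Rbms3 at 0.61 in the second (unadjusted p = 0.00228). Rbm33 was at -0.46 (unadjusted p = 0.019) and Rbms1 at -0.74 (unadjusted p = 0.0339) between the untreated groups, and Rbm7 at -0.57 with NR (unadjusted p = 0.0387). In this fit 5 members had an unadjusted p under 0.05 between the untreated groups, against 8.49% of all genes, and not all are named here. With NR there were 2, against 12.7%. Rbm11, at 0.52, then had an unadjusted p of 0.0523. The part of RNA quality in the members' differences was not tested.

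**Figure D5:**
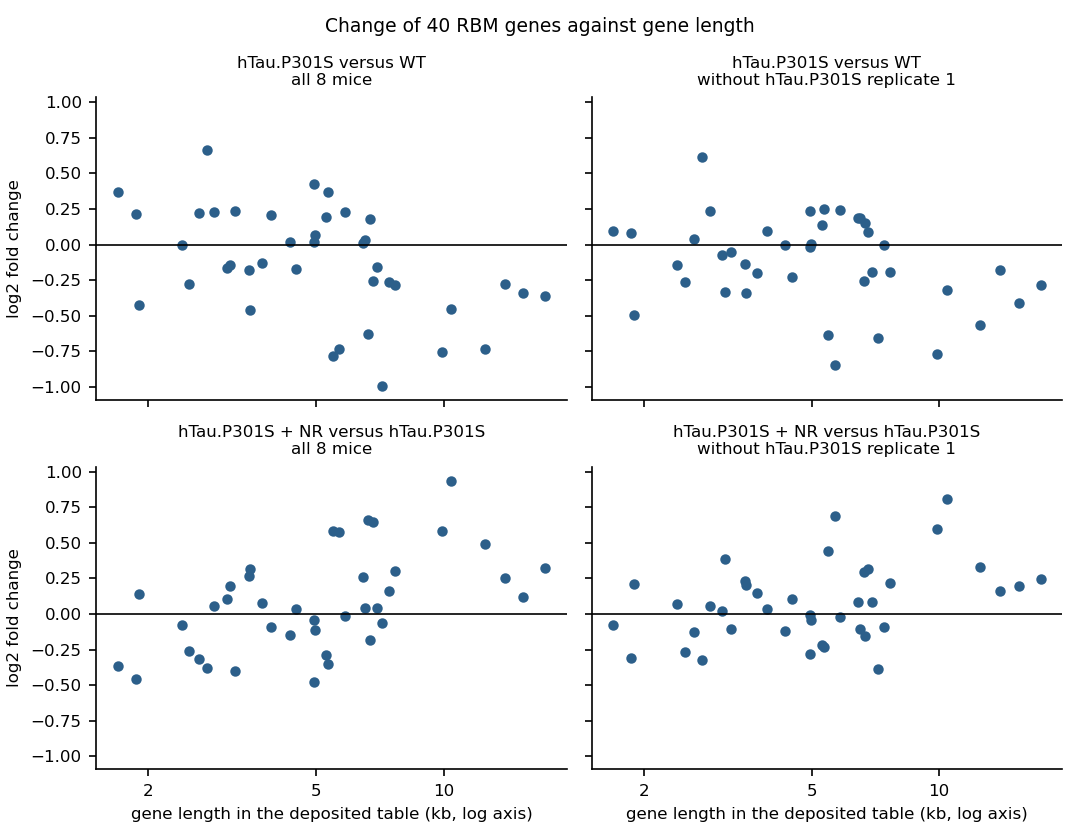
Log2 fold change of the 40 RBM genes against gene length (logarithmic axis) for hTau.P301S against WT (top) and for NR against no NR among hTau.P301S mice (bottom), with all 8 mice (left) and without hTau.P301S replicate 1 (right). Points slope downward in the top row (Spearman -0.51 and -0.27) and upward in the bottom row (0.55 and 0.37), less without that mouse.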

How the data were processed

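RNA of the hippocampus from 16 mice, 4 per group, was sequenced, and the samples were grouped by their labels. The authors checked reads with FastQC, trimmed them with Trim Galore, used STAR for alignment to mm10 and RSEM for the gene-level table, and deposited raw counts that are not normalized. The deposited table also gives a gene length, another value whose definition the authors do not state. The versions of these tools are not given in the sources used here.

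Counts were tested with edgeR 4.0.16 in R 4.3.3 (TMM scaling, its default low-count filter, quasi-likelihood test), each comparison on its own 8 mice and the interaction on all 16. All kept genes were fitted, and p-values were adjusted over all of them by the Benjamini-Hochberg method. A call needed an adjusted p under 0.05 and, outside the interaction, an absolute log2 fold change above 0.5. Single genes were also compared by a two-sided exact permutation test of log2 CPM (prior count 2, scipy 1.17.1). CPM used TMM-scaled totals. Alternatives were DESeq2 1.42.0, other filters and scalings, all 4 groups in one fit, a replicate block and leaving out each mouse. Removing the trend of log2 CPM with gene length, and the fits of all 4 groups without hTau.P301S replicate 1, were chosen after seeing the data. The fits were tested on simulated data. Figures were drawn with matplotlib 3.10.9.

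Members with an unadjusted p under 0.05 or without overlap in any comparison, the 5 highest and 3 lowest per kilobase, and pairs of paralogs or neighbours were named, 25 in all. The members and the gene lists were chosen with earlier results of these data known. Positions are from GENCODE M21 (GRCm38) and promoter sequences from RefSeq (GRCm38.p6), where 34 of 40 members were matched. Whether the counting used strand is not stated. In all 24 pairs of mice of one group the counts differed beyond sampling noise. The labels name separate mice, and the total counts, 16490261 to 21915362 per mouse, set the counting error.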

Additional observations from a re-analysis of the deposited data

Results flagged for a closer look

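In 8 of 104 groups of 4 mice examined, 1 mouse lay far from the other 3 by Dixon's criterion for 4 values, where chance gives about 1 in 20 groups. Of these, 4 were in hTau.P301S replicate 1, the library with 14.4% mitochondrial counts: Rbmxl1 at 66.6 CPM (others 34.6 to 38.7), Rbm15b at 41.8 CPM (others 70.9 to 75.3), Rbm6 at 25.4 CPM (others 34.4 to 36.2) and Rbm20 at 0.43 CPM (others 3.60 to 3.99). Rbm12b2 was at 11.9 CPM in hTau.P301S replicate 2, with the others at 7.14 to 7.69. Rbms3 was at 22.5 CPM in hTau.P301S + NR replicate 2, with the others at 28.1 to 28.7. In the WT + NR group, Rbm11 was at 6.66 CPM in replicate 4 (others 7.96 to 8.20) and Rbmxl1 at 38.5 CPM in replicate 3 (others 33.1 to 33.7).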

How the results depend on the processing

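Of 354 values under alternatives for the 18 combinations of a named member and a comparison with an unadjusted p under 0.05 or no overlap, 337 kept their direction without a call, 16 kept it and were called, and 1 changed sign: Rbm6 with NR in hTau.P301S mice was -0.22 with the length trend removed. For hTau.P301S relative to WT, 1 member was called in DESeq2 on the same mice, where 0.375% of genes were. With all 4 groups fitted together, DESeq2 called 3 (1.46% of genes) and edgeR 1 (0.205%). Without hTau.P301S replicate 1 those fits called 2 (1.31%) and 1 (0.296%). Members at an unadjusted p under 0.05 were 10 in DESeq2 with all 4 groups, against 11.4% of genes. Without that mouse they were also 10, against 10.1%. Leaving out each mouse gave 2 to 6 (lowest without hTau.P301S replicate 4), against 4.26% to 11.8% of genes. The medians of these fits ran from -0.184 to -0.079, and the median with the length trend removed was -0.003. For NR in hTau.P301S mice, members called were 3 (0.81% of genes) and 2 (0.729%) in the DESeq2 fits. The count was 1 (0.329%) in DESeq2 with all groups without that mouse. It was 0 to 1 when each mouse was left out (1 without hTau.P301S replicate 1, where 0.197% of genes were called). Those at an unadjusted p under 0.05 were 7 in DESeq2 with all groups (12.7% of genes) and 2 with the length trend removed (12.7%). They were 3 to 9 when each mouse was left out, against 5.37% to 20.4% of genes (9 and 20.4% without hTau.P301S replicate 2). The medians of these fits were 0.011 to 0.114, and the median was -0.023 with the length trend removed. For WT + NR relative to WT, the count at an unadjusted p under 0.05 was 1 in DESeq2 with all groups (0.839% of genes). It was 1 with the length trend removed (1.04%) and 2 in both fits of all groups without hTau.P301S replicate 1 (1.47% and 1.75%). It was 0 to 1 when each mouse was left out (0.709% to 1.89%). For hTau.P301S + NR relative to WT + NR, this count was 1 in DESeq2 with all groups without that mouse (3.9% of genes). It was 0 to 2 when each mouse was left out (3.56% to 11.2%). For the interaction, DESeq2 called 1 member (0.0476% of genes). Leaving out each mouse gave 2 to 7 at an unadjusted p under 0.05, against 5.06% to 14.5% of genes. The medians of these fits were 0.075 to 0.167, and the median was -0.037 with the length trend removed. The causes were not tested.

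Replicate numbers are shared between the groups, but the labels tie them to no litter or batch. Correlations between same-numbered mice ran from -0.54 to 0.42 over 24 pairs, and 4 of 24 were highest with their own number. With 4 mice per group these values cannot show whether mice of the same number shared a litter or batch. With the replicate block, 3 members had an unadjusted p under 0.05 for hTau.P301S relative to WT, against 4.71% of genes. For NR in hTau.P301S mice there were also 3, against 5.88%, and no member was called. Depth limits Rbm46 most, with 208 counts over all 16 mice, and 4 mice per group limit all comparisons.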
